A study of Sus scrofa with 32 samples.

Results

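Ileal mast cells were taken from single-cell RNA sequencing of the porcine distal ileum as the barcodes that carried at least 3 UMIs, the tags that mark single captured mRNA molecules, of HDC, MS4A2 and GATA2 together and no UMI of CD3E, CD79B or EPCAM. Before that, a barcode had to pass a minimum number of UMIs, at least 550 genes and a ceiling on the share of UMIs from 13 mitochondrial genes. Members held at least 1271 UMIs each, and at most 10.7% of a member's UMIs were mitochondrial. The rule found 61 members among 35386 barcodes that passed these filters in 6 ileal libraries, and 48629 barcodes passed in all 8 libraries of the study. CPA3, the fourth marker named in the rule, had no named row in the matrices, so that the rule rested on the other 3 genes. Since HDC, MS4A2, GATA2, CD3E, CD79B and EPCAM chose the members, their values are given as description and were not tested.

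The study compared immune cells between ileal regions that differ in their Peyer's patches, the organised lymphoid follicles of the gut wall. The libraries came from 2 mixed-breed pigs aged 7 weeks, with no treatment, pig 1 labelled female and pig 2 labelled male. Each pig gave an ileal dissection without Peyer's patches (non-PP), one with Peyer's patches only (PP), and a cross section with both (whole ileum), as well as blood mononuclear cells (PBMC). Ileal suspensions joined the epithelial and digested fractions, and the cells had been collected from a Percoll density gradient and depleted of dead cells, a preparation meant to enrich for live lymphocytes, so that shares refer to these suspensions and not to the tissue.

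Mast cells are granulated cells of haematopoietic origin that mature in tissues under the KIT receptor and its ligand, and that are best known for carrying IgE on the high-affinity receptor FcεRI. Cross-linking of that receptor releases stored histamine, tryptase and proteoglycan from granules, and starts the making of leukotrienes, prostaglandins and cytokines. In the gut wall they lie in the lamina propria and submucosa, near nerves and vessels, and take part in responses to worms, in allergy and in the control of secretion and motility. Of the rule's genes, HDC makes histamine, MS4A2 is the β chain of FcεRI, and GATA2 is a transcription factor of the mast cell lineage. On the pig assembly Sscrofa11.1, RefSeq places HDC on chromosome 1 (121505677 to 121525416), MS4A2 on chromosome 2 (11400415 to 11420314) and GATA2 on chromosome 13 (71981139 to 71997626), and the 2 receptor genes used most below, KIT and FCER1A, on chromosomes 8 (41402334 to 41492306) and 4 (91118867 to 91125448).

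The 6 ileal libraries held 21134542 to 40111934 UMIs over all barcodes. Members numbered 14 and 8 in the non-PP libraries of pigs 1 and 2, 6 and 6 in the PP libraries, and 11 and 16 in the whole ileum libraries. Over all members the median depth was 2793 UMIs (range 1271 to 19721), against library medians of 2577.5 to 3061 UMIs for all passing barcodes. By library, the median of members ran from 2284 UMIs in whole ileum of pig 2 to 4234.5 UMIs in non-PP of pig 2.

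One library did not match its label. UMIs of 3 Y-linked genes (DDX3Y, EIF1AY and KDM5D) stood at 193 counts per 1000000 UMIs (CPM) in the library labelled whole ileum of pig 1, the female. The other libraries labelled pig 1 held 0.689 CPM in non-PP, 2.49 CPM in PP and 0.658 CPM in blood, while those labelled pig 2, the male, held 168, 203, 214 and 104 CPM in non-PP, PP, whole ileum and blood. The library was kept under its label. The number of members, the counts of genes that passed in all and for most lists, and the calls of named genes are given with and without it. Levels, medians and pooled ratios include it unless stated. Without it there were 50 members among 29597 passing barcodes.

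Barcode sequences were shared between ileal libraries about as often as the whitelist of possible barcodes would give, with 683 shared passing barcodes over 15 pairs of libraries against 698 expected. The sequences of 2 members also passed the filters in another ileal library, and none was a member in both. Scrublet called 1198 (3.39%) of the passing ileal barcodes doublets at a score above 0.25, and none of the 61 members.

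The members fell into 2 sets by a transcript that the rule did not use. MCT7, a mast cell tryptase stored in secretory granules, was present at 3 to 69 UMIs (median 11) in 46 members and at 0 in the other 15, with no member at 1 or 2 UMIs. The files give this gene only as ENSSSCG00000021222, which the study's own gene table names MCT7. RefSeq places a gene of that name on chromosome 3 at 40616642 to 40619148 (Sscrofa11.1), but its table lists no Ensembl identifier for it. Among T cells, which should lack the gene, 3 of 3000 barcodes drawn from the T gate (CD3E at 1 UMI or more, no CD79B or EPCAM) held an MCT7 UMI (0.1%), at library median depths of 2225 to 2716 UMIs. The T gate also holds barcodes that the rule removed for CD3E alone.

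The 46 members with MCT7 carried most, but not all, of the mast cell genes measured. They held a median of 2461.5 UMIs and 1079.5 genes, and 16.5 UMIs of the rule's markers (3 to 37). FCER1A, the IgE-binding α chain of FcεRI, and SRGN, the proteoglycan core protein that packs granules, had a UMI in 46 of 46. KIT and LTC4S, the leukotriene C4 synthase, each had one in 44, CCN3, a secreted matricellular protein, in 40. GCSAML had a UMI in 32 of the 46, HPGDS in 26, RAB27B in 24, SLC18A2 in 15 and IL1RL1 in 3. Of the genes that chose the members, HDC was present in 37 and GATA2 in 33. All 3 genes of the rule were present together in 28 of them, while 4 carried MS4A2 alone. After every barcode was thinned to the minimum UMI number of the filter, MCT7, which defined the 46, was still found in 100% of them. MS4A2 was found in 97.8%, KIT and LTC4S in 87.0%, HDC in 65.2% and GATA2 in 54.3%.

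The 15 members without MCT7 went against the label. Of these, 14 carried MS4A2 (3 to 11 UMIs) and neither HDC nor GATA2, and all 14 held AIF1, a gene of macrophages and dendritic cells (DCs), at 3 to 39 UMIs (median 11.5). The MHC class II gene HLA-DRA stood at 27 to 187 UMIs in each of the 14 (median 115), against a highest value of 2 UMIs in the 46. LTC4S, CCN3, HPGD, GCSAML, RAB27B and KLRB1 were at 0 in all 15, and KIT reached 1 UMI in 4 of them. FCER1A was present in 11, at up to 29 UMIs, and SRGN in 13. The 14 were deep barcodes, with 4646 to 19721 UMIs (median 7967). The remaining member, from non-PP of pig 2 with 12626 UMIs, entered through 3 UMIs of GATA2 and had 0 UMIs of MS4A2, SRGN, FCER1A and AIF1. These members are therefore called by the rule only, and values are given for the 46 members with MCT7 beside those for all 61. This split was made after the values were seen and was not tested.

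**Figure D1:**
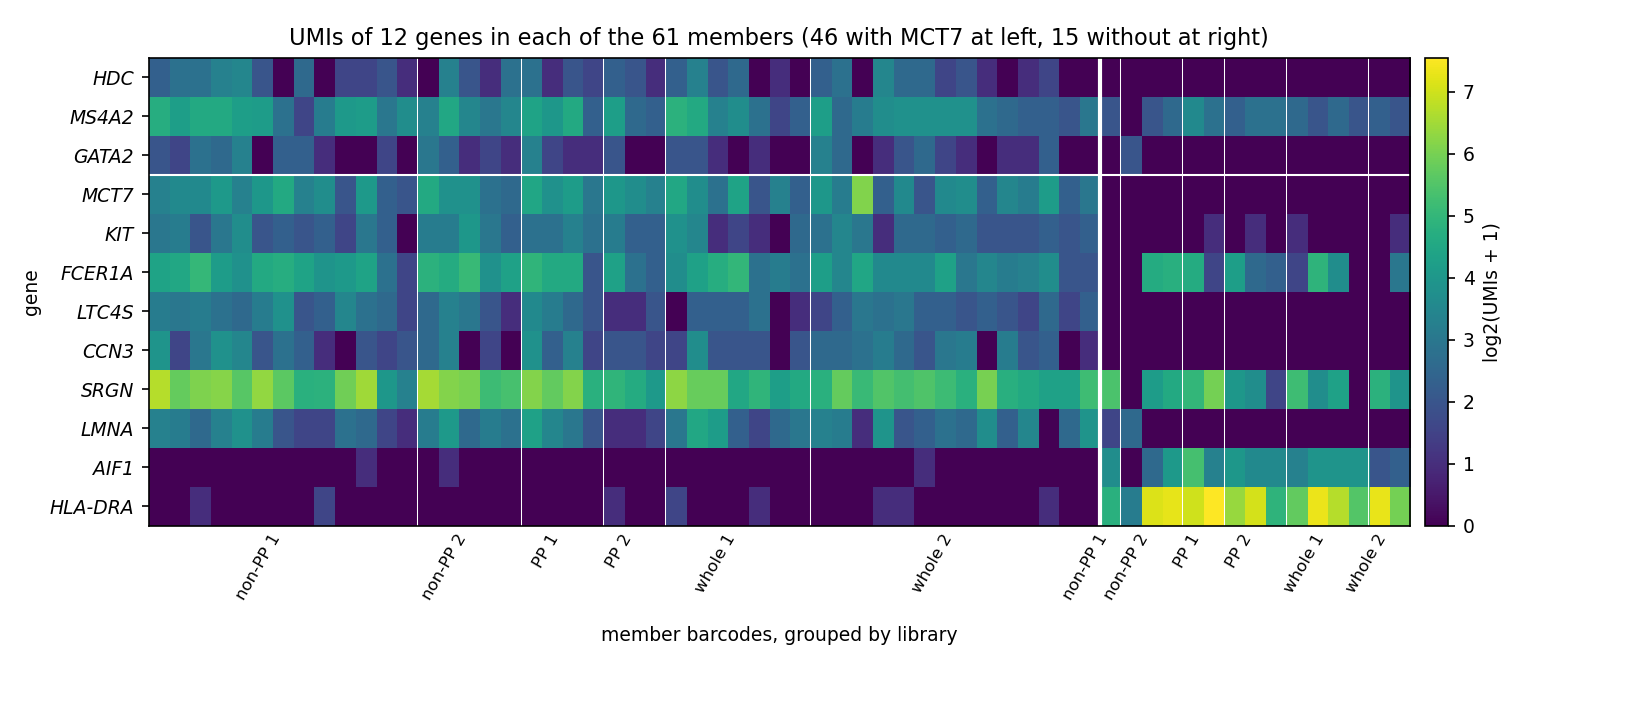
UMIs of 12 genes (rows) in each of the 61 members (columns, grouped by library), coloured by log2(UMIs + 1); the 3 genes of the rule are above the thin line, and the thick line divides the 46 members with MCT7 from the 15 without. MCT7 lies at 3 UMIs or more throughout the left block, while AIF1 and HLA-DRA fill 14 columns of the right block, where LTC4S and CCN3 are at 0.

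The set without MCT7 weighed more in summed counts than in cells. It made up 15 of 61 members but 127140 of the 241778 member UMIs (52.6%), since its barcodes were deeper. By library it numbered 1 in non-PP and 2 in PP of pig 1, 3 in non-PP and 3 in PP of pig 2, 4 in the library labelled whole ileum of pig 1 and 2 in whole ileum of pig 2, and it held 18.9% of the member UMIs in non-PP of pig 1 and 79.8% in PP of pig 2. Without the library labelled whole ileum of pig 1, 39 members with MCT7 and 11 without remained.

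Near the threshold the rule caught mostly the second kind. Of the 8 members at exactly 3 marker UMIs, 2 held MCT7, and of the 50 at 5 or more, 7 lacked it. Just below, 9 passing barcodes stood at 2 marker UMIs, all of MS4A2 alone. None of these 9 held MCT7 and 8 held AIF1. The requirement of no CD3E, CD79B or EPCAM UMI removed 24 of 85 passing barcodes with 3 or more marker UMIs, 16 of them with CD3E, 9 with CD79B and 1 with EPCAM. A further 18 passing barcodes with at least 3 MCT7 UMIs were not members, and each of the 18 held a UMI of CD3E, CD79B or EPCAM. Among 16206 ileal barcodes of 500 UMIs or more that failed the quality filters, 4 met the marker rule.

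The share of a mast cell transcript that lay in members differed from gene to gene. Members contained 0.134% of all ileal UMIs but 57.0% of those of MCT7 and 48.8% of CCN3, which the rule did not use. For KIT and LTC4S the share was 6.54% and 6.48%, with 76.2% and 56.1% of their UMIs in other passing barcodes. Members also held 51.6% of GATA2, 50.8% of MS4A2 and 41.8% of HDC UMIs, which the rule itself required of them. Barcodes under 500 UMIs, where free RNA was not told apart from small cells, contained 8.55% of MCT7 UMIs and 26.3% of HDC UMIs, against 16.8% of all UMIs.

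Mast cell genes were measured in the 46 members with MCT7 of every library, at levels that differed between libraries. Levels below are UMIs summed over these members per 1000000 of their UMIs (CPM), in the order non-PP 1, non-PP 2, PP 1, PP 2, whole ileum 1 and whole ileum 2, where the number is the labelled pig. MCT7 stood at 4035, 3865, 5096, 6680, 4316 and 6142 CPM. FCER1A stood at 6583, 7537, 6941, 5381, 6076 and 5135 CPM. SRGN, the highest of the granule genes, stood at 19980, 19320, 19240, 12990, 15900 and 16380 CPM. Because each molecule is counted once from its 3′ end, these levels count molecules and need no correction for transcript length. KIT, the receptor for stem cell factor, stood at 1832, 2705, 2372, 2969, 1817 and 2115 CPM, and of the rule's own genes MS4A2 stood at 5495, 3736, 5448, 5010, 4770 and 4162 CPM. The order of the libraries differed from gene to gene, and no library was highest for more than 2 of these 5 genes. Other mast cell genes differed by more between libraries, GCSAML from 371 to 2021 CPM, HPGDS from 186 to 879 CPM, LTC4S from 928 to 2433 CPM, CCN3 from 1031 to 2460 CPM and SLC18A2 from 0 to 264 CPM. GATA2 ranged from 454 CPM in the library labelled whole ileum 1 to 1142 CPM in PP 1, on 3 to 36 UMIs in a library.

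Markers of other cell types were low in the 46 members with MCT7. A list of 20 macrophage markers summed to 270.4 CPM (31 UMIs over 9 genes, 15 of them of CD68, which lies on granule membranes of several leukocytes), against 51660 CPM in the macrophage gate (at least 3 UMIs of C1QA, C1QB and C1QC), where these 3 genes of the list chose the barcodes. By library this sum was 315, 258, 527, 0, 114 and 268 CPM. In the 15 members without MCT7 it was 3500 CPM, led by AIF1, and 10160 CPM for 17 DC markers, led by CST3. The DC list reached 672 CPM in the 46, led by GSN, and 49040 CPM in the DC gate (at least 2 UMIs of FLT3, XCR1 and BATF3, with AIF1 and without C1QA, C1QB or C1QC), which was likewise chosen by 3 genes of its list. B lineage markers summed to 384 CPM in the 46, led by CD37, with CD79A at 0, and T cell markers to 270.4 CPM, led by TCF7. Epithelial markers summed to 776 CPM, of which 62 of 89 UMIs were FABP6, an ileal bile acid binding protein, and ranged from 1918 CPM in non-PP 1 to 0 in PP 2. The same list stood at 899 CPM in the T gate, and its part in the results was not tested. The T cell, B lineage and epithelial lists include CD3E, CD79B and EPCAM, which the rule set to 0 in members.

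Members made up a larger share of passing barcodes in non-PP than in PP in each pig. In non-PP they were 0.358% in pig 1 (exact Clopper-Pearson 95% interval 0.196 to 0.600) and 0.212% in pig 2 (0.0915 to 0.417). In PP they were 0.0818% (0.0300 to 0.178) and 0.0873% (0.0320 to 0.190). The whole ileum libraries lay between, at 0.190% (0.0949 to 0.340) in the library labelled pig 1 and 0.208% (0.119 to 0.337) in pig 2, so that the values of the 3 dissections did not overlap. Their intervals did: that of non-PP 2 overlapped those of all 4 libraries of PP and whole ileum, and those of both PP libraries overlapped those of both whole ileum libraries. The mean was 0.285% ± 0.104 in non-PP and 0.0845% ± 0.00391 in PP (SD, n = 2), a difference of 0.201 percentage points and a ratio of 3.37. With 2 libraries against 2, the exact permutation test gave p = 0.3333 (two-sided), which is the smallest it can give. Intervals cover counting error only.

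The difference was smaller where barcodes with CD79B were left out of the denominator. PP libraries held 3743 and 3767 barcodes of the B gate (CD79B at 1 UMI or more, no CD3E or EPCAM) and non-PP libraries 24 and 63. Over passing barcodes with no CD79B UMI, the shares were 0.362% and 0.217% in non-PP and 0.237% and 0.244% in PP, so that the groups overlapped, with a difference of 0.0488 points (exact permutation test, p = 1). Over barcodes with no CD3E, CD79B or EPCAM UMI, they were 4.88% and 0.763% in non-PP and 1.02% and 0.946% in PP, also overlapping (exact permutation test, p = 1). Over barcodes with no CD79B UMI the mean of the whole ileum libraries (11 of 3303 barcodes in the library labelled pig 1 and 0.728% in pig 2) did not lie between the others, at 0.531% against 0.290% in non-PP and 0.241% in PP, nor did it with 500 UMIs and no other quality filter, at 0.159% against 0.153% and 0.0693%. For the 46 members with MCT7 alone, given without a test, there were 13 among 3908 passing barcodes in non-PP 1, 5 among 3776 in non-PP 2, 4 among 7337 in PP 1 and 3 among 6872 in PP 2, with mean shares of 0.233% ± 0.142 and 0.0491% ± 0.00768 (SD, n = 2), so that without non-PP 1 the non-PP value was 0.132%. Of barcodes with no CD79B UMI they were 0.336% and 0.136% in non-PP and 0.158% and 0.122% in PP, where the groups overlapped (means 0.236% ± 0.142 and 0.140% ± 0.0254).

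**Figure D2:**
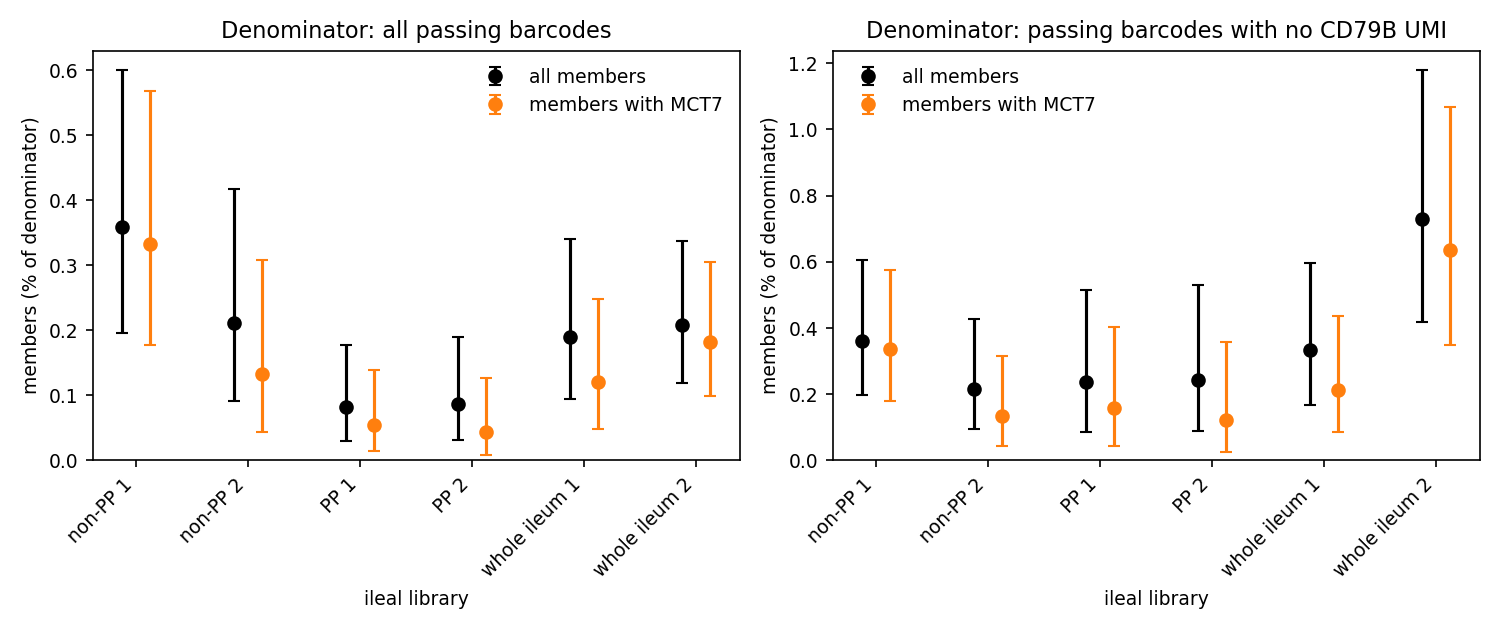
Members as a percentage of passing barcodes (left) and of passing barcodes with no CD79B UMI (right) in each ileal library; black points are all members, orange points the members with MCT7, and bars are exact Clopper-Pearson 95% intervals. At left both non-PP libraries (0.358% and 0.212%) lie above both PP libraries (0.0818% and 0.0873%), and at right non-PP 2 (0.217%) lies below both PP libraries (0.237% and 0.244%).

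To ask how members differed from other tissue myeloid cells, their counts were summed per pig and set against sums of 94 barcodes of the macrophage gate and 94 of the DC gate. Of 4560 genes tested with edgeR's quasi-likelihood test, 427 (9.36%) passed an adjusted p of 0.05, 261 (5.72%) of them higher and 166 (3.64%) lower in members than in the mean of macrophages and DCs. Without the library labelled whole ileum 1, 310 of 4222 genes (7.34%) passed, of which 289 were among the 427. The filter on low counts asked for 36.3 CPM in at least 2 of the 10 sums, and 436 of the 4560 genes reached this only through the members. None of these 436 was called lower and 102 of the 261 were among them, so that the filter fixed the direction of their calls, which lend no support. They are counted below and described by their UMIs and pooled ratios, with no p. Of the other 4124 genes, 159 (3.86%) were higher. Conversely, 761 genes reached the minimum in no member sum, and 36 of the 166 lower genes were among these. By list, the genes fixed in this way were all 6 secreted proteins that were higher, 5 of 6 mediator receptors, 3 of 7 eicosanoid enzymes, 2 of 3 granule genes, 2 of 7 vesicle genes, 2 of 11 immediate early genes, 1 of 5 transcription factors, 1 of 5 sterol genes, 1 of 3 adhesion genes (CD82), 1 of 2 lymphocyte-type genes (KLRB1) and 0 of 7 IgE receptor genes. The labels give 2 pigs, so these p-values measure the spread between 2 sums of a class. The sum labelled pig 1 includes the library labelled whole ileum 1, which did not match its label. Whether the 2 sums come from separate animals was not tested. The fold changes cover all 61 members, and where a comparator class had 3 UMIs or fewer, the ratio of pooled CPM with its exact counting interval is given in place of the fitted fold change.

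Granule genes did not move as a group. Of 15 tested, 3 were higher and 4 lower, and the median log2 fold change was -0.44 against -0.04 for all genes. MCT7 had 554 UMIs in members and 0 in macrophages and DCs, which makes it at least 714-fold higher over the group floor of 3 UMIs. In the 46, which MCT7 itself defined, it was at least 1506-fold higher. SRGN was at 10579 and 8846 CPM in members of pigs 1 and 2, 2955 and 3219 CPM in macrophages and 929.8 and 1489 CPM in DCs (log2 fold change 2.03 ± 0.16 SE, edgeR adjusted p = 6.43e-05). SLC18A2, which loads amines such as histamine into vesicles, had 23 UMIs in members and 1 in macrophages, a pooled ratio of 88.9-fold (95% counting interval 14.4 to 3663). The 4 that were lower were lysosomal enzymes, CTSC, CTSZ, GUSB and LGMN. CTSZ was at 454 and 347 CPM in members and 3672 and 3897 CPM in macrophages (log2 fold change -2.06 ± 0.18 SE, edgeR adjusted p = 0.000107), with 14 of its 98 member UMIs in the 46. GUSB, with 6 UMIs in members, did not pass without PP 1 or within one pig.

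Of 15 genes of vesicle traffic, 7 were higher and none lower, at a median of 1.06. RAB27B and MLPH, a small GTPase and its effector that move granules along the cell cortex, had 39 and 60 UMIs in the 46 and none in the other members. RAB27B was at 0 in both comparator classes and so at least 50.3-fold higher, and MLPH was 232-fold (95% counting interval 40.1 to 9313) higher. STX11, a syntaxin of granule release, was at 386 and 237 CPM in members, 158 and 98.3 CPM in macrophages and 10.5 and 49.3 CPM in DCs (edgeR adjusted p = 0.00623), but did not pass without non-PP 1. Its partner STXBP2 (log2 fold change 1.46 ± 0.33 SE, edgeR adjusted p = 0.0194) did not pass without PP 2 or without the library labelled whole ileum 1.

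Of 22 genes of the IgE receptor and its signalling chain, 7 were higher and 2 lower, with a median of 0.09. FCER1A was at 3668 and 3496 CPM in members against 312 and 145 CPM in macrophages and 468 and 496 CPM in DCs, with no overlap (log2 fold change 3.12 ± 0.29 SE, edgeR adjusted p = 0.000185; 3.71 without the library labelled whole ileum 1). The γ chain FCER1G, which other Fc receptors also use, was at 1535 and 1406 CPM in members, between macrophages (2316 and 2303 CPM) and DCs (730.2 and 628 CPM), and did not pass (edgeR adjusted p = 0.879). The adaptor LAT was higher (log2 fold change 2.55 ± 0.28 SE, edgeR adjusted p = 0.000485), as was GRAP2, a further adaptor, at 63.8-fold (95% counting interval 16.3 to 549). RGS13, which dampens G protein signals, had 27 UMIs in the 46, 3 in DCs and 0 in macrophages, or 34.8-fold (95% counting interval 10.7 to 179). BTK, RGS1 and RGS2 also passed as higher, and CBLB and INPP5D, negative regulators, as lower. CBLB reached the filter's minimum in no member sum.

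Of 12 enzymes of leukotriene and prostaglandin synthesis, 7 were higher and 1 lower, with a median of 1.98. LTC4S had 218 UMIs, all in the 46, against 1 in macrophages and 7 in DCs, a pooled ratio of 105-fold (95% counting interval 52.5 to 247) for all members. HPGDS, which makes prostaglandin D2, had 44 UMIs against 0 and 2, or 85.1-fold (95% counting interval 22.2 to 724). HPGD, which breaks prostaglandins down, was at 605 and 712 CPM in members and 287 and 285 CPM in macrophages (log2 fold change 3.17 ± 0.35 SE against both classes, edgeR adjusted p = 0.000485). PTGS2, the inducible cyclooxygenase, had 50 UMIs against 14 and 1, or 12.9-fold (95% counting interval 7.12 to 24.7), and PTGS1, ALOX5AP and ACSL4 also passed. The 5-lipoxygenase ALOX5 was at 197 and 164 CPM in members and did not pass (edgeR adjusted p = 0.244). LTA4H, which leads to leukotriene B4 instead, was lower on 1 UMI in members against 48 in the comparators, but not by DESeq2, nor without non-PP 1, non-PP 2 or PP 1. It reached the filter's minimum in no member sum.

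Among 12 growth factor and cytokine receptors tested, KIT and CSF2RB were higher and none was lower, with a median of 0.09. KIT was at 945 and 1123 CPM in members, 24.3 and 15.5 CPM in macrophages and 31.5 and 32.9 CPM in DCs (log2 fold change 5.03 ± 0.21 SE, edgeR adjusted p = 9.38e-07; 4.93 without the library labelled whole ileum 1). CSF2RB, the β chain shared by the receptors for IL-3, IL-5 and GM-CSF, was at 1187 and 949 CPM against 279 and 217 and 309.9 and 148 CPM (log2 fold change 1.89 ± 0.26 SE, edgeR adjusted p = 0.00121). IL1RL1, the receptor for IL-33, had 3 UMIs in 3 of the 46 members and was too low to be tested.

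Receptors for other mediators were higher in 6 of 13 and lower in none, with a median of -0.07. NPR3, a clearance receptor for natriuretic peptides, was at 378 and 338 CPM in members, 16.2 and 15.5 CPM in macrophages and 26.3 and 26.3 CPM in DCs. The histamine receptor HRH4 was 88.9-fold (95% counting interval 14.4 to 3663) higher and the ATP-gated channel P2RX1 48.3-fold (95% counting interval 12.1 to 421), on 23 and 25 UMIs that all lay in the 46. CYSLTR2, a receptor for the leukotrienes that LTC4S leads to, was 11.6-fold (95% counting interval 4.01 to 40.8) higher. P2RY14 was also called higher. Like NPR3, HRH4, P2RX1 and CYSLTR2, it entered the test only through the members. Of the 6, CCR9 alone, a chemokine receptor of gut-homing cells, entered otherwise. Its 24 UMIs in members lay in 7 of the 15 members without MCT7 and none in the 46.

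Of 18 secreted proteins tested, 6 were higher and 1 lower. Their median was 1.40 as fitted and -0.01 with the 9 genes at 0 in a class set to their pooled ratio or floor. TFPI2, a serine protease inhibitor of the extracellular matrix, had 138 UMIs in the 46, 1 in the other members and 0 in macrophages and DCs, at least 179-fold higher. CCN3 had 209 UMIs against 1, or 808-fold (95% counting interval 143 to 32067). The type 2 cytokines IL4 and IL13 had 16 and 32 UMIs in members, all in the 46, and 0 in both comparator classes. By pooled CPM over the group floor IL4 was at least 20.6-fold and IL13 at least 41.2-fold higher, and IL13 did not pass without the library labelled whole ileum 1. SPON2 and LIF were also called higher, and all 6 entered the test only through the members. CXCL8, the neutrophil attractant, was the gene that was lower, at 15.1 and 9.13 CPM in members and 611 and 699 CPM in macrophages, but it reached the filter's minimum in no member sum and did not pass without the library labelled whole ileum 1.

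Among 21 transcription factors, CREM, GATA1, HES1, LMO4 and MITF were higher and IRF8 lower, with a median of 0.41. HES1, a target and effector of Notch signalling, was at 393 and 703 CPM in members, 48.6 and 51.8 CPM in macrophages and 10.5 and 13.2 CPM in DCs (log2 fold change 4.16 ± 0.30 SE, edgeR adjusted p = 3.38e-05; 3.93 without the library labelled whole ileum 1). GATA1, a partner of GATA2 in this lineage, had 12 UMIs in the 46 and none in the comparators, at least 15.5-fold higher. MITF, a mast cell and pigment cell factor, was 3.12-fold (95% counting interval 1.77 to 5.46) higher by pooled CPM, with 31 UMIs in macrophages and 0 in DCs, and did not pass without non-PP 1. IRF8, a factor of DCs and monocytes, had 22 UMIs in members and 0 in the 46 (log2 fold change -2.06 ± 0.25 SE for all members, edgeR adjusted p = 0.00073).

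Immediate early and NF-κB feedback genes, which are known to be switched on within minutes of a stimulus, were higher in 11 of 24 and lower in none, with a median of 1.05. EGR1 was at 461 and 411 CPM in members, 40.5 and 25.9 CPM in macrophages and 5.25 and 13.2 CPM in DCs. ATF3 was also higher (log2 fold change 2.11 ± 0.28 SE, edgeR adjusted p = 0.00105), as was IER3, with 60 UMIs against 9 and 0, or 25.8-fold (95% counting interval 12.7 to 59.1). NFKBID passed as well (2.39 ± 0.49 SE, edgeR adjusted p = 0.0126), but not without whole ileum 2. FOS did not pass, and its 86 UMIs in the 46 were uneven, 38 of them in 1 member.

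Cholesterol synthesis and uptake genes were higher in 5 of 15 and lower in none, with a median of 1.67. SQLE, the squalene epoxidase, was at 257 and 192 CPM in members, 16.2 and 5.18 CPM in macrophages and 57.8 and 85.5 CPM in DCs (log2 fold change 2.67 ± 0.40 SE, edgeR adjusted p = 0.00227). MSMO1 (2.50 ± 0.24 SE, edgeR adjusted p = 0.000214), HMGCS1, SC5D and CYP51A1 were the others, and HMGCS1 and SC5D did not pass without non-PP 1.

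MHC class II presentation genes were lower in 9 of 12 and higher in none, with a median of -1.26. Most of what members held lay in the set without MCT7. CD74, the invariant chain, was at 10617 and 11850 CPM in members, 19144 and 20070 CPM in macrophages and 33656 and 29782 CPM in DCs (log2 fold change -1.45 ± 0.11 SE, edgeR adjusted p = 3.38e-05), but 2667 of its 2702 member UMIs lay in the 15. In the 46 it was at 328 and 276 CPM. CTSS, a protease that trims CD74, was lower too (log2 fold change -2.22 ± 0.16 SE, edgeR adjusted p = 3.38e-05), while CD40, CD86 and SLA-DMB passed but not without non-PP 1. CD86 and SLA-DMB did not pass without the library labelled whole ileum 1 either. The DC marker CST3 followed the same pattern, at 3554 and 3898 CPM in members against 44819 and 44793 CPM in DCs (log2 fold change -3.12 ± 0.23 SE, edgeR adjusted p = 3.38e-05), with 33 of its 897 UMIs in the 46.

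Of 19 integrins, tetraspanins and adhesion molecules, 3 were higher (CD82, EMP3, ICAM1) and 2 lower (CADM1, VCAM1), with a median of -0.27. The tetraspanin CD82 was 8.77-fold (95% counting interval 5.44 to 14.5) higher by pooled CPM. VCAM1 (log2 fold change -3.25 ± 0.62 SE, edgeR adjusted p = 0.00876) did not pass without either whole ileum library, nor CADM1 without whole ileum 2. CADM1 reached the filter's minimum in no member sum. Of 14 lymphocyte-type effector genes, KLRB1, which encodes the C-type lectin CD161, and the activation marker CD69 were higher and none lower, at a median of -0.90. KLRB1 had 229 UMIs, all in the 46, against 7 in macrophages and 3 in DCs, or 88.5-fold (95% counting interval 47.3 to 187). None of 16 cell cycle genes passed.

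Of the markers of other cell types, 5 of 13 macrophage markers (ACP5, APOE, CXCL14, LGMN, SELENOP) and 4 of 12 DC markers (CADM1, CD86, CST3, IRF8) were lower in members. ACP5, SELENOP and CADM1 reached the filter's minimum in no member sum. APOE, CXCL14 and LGMN, and CD86 among the DC markers, did not pass without the library labelled whole ileum 1. The B lineage gene MZB1 passed as lower on 0 UMIs against 20, but not by DESeq2, and reached the filter's minimum in no member sum. None of 12 T cell, 4 epithelial, 1 endothelial (PECAM1) and 2 platelet or granulocyte genes (CD9, ITGA2B) passed. Of the mast cell markers that the rule did not use, FCER1A and KIT, which other classes also held above the filter, were higher. CCN3, GCSAML, HPGDS, LTC4S, MCT7, RAB27B and SLC18A2 entered the test only through the members, and IL1RL1 did not enter it, so no count is drawn over these markers. GCSAML, a paralogue of a germinal centre signalling protein, had 81 UMIs in the 46 and none elsewhere in this comparison, at least 104-fold higher.

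Outside the lists, the genes with the largest increases included PALM2, at 35.4-fold (95% counting interval 15.3 to 101). ENSSSCG00000008032 and ENSSSCG00000036851, which have no symbol in the files, had 100 and 81 UMIs in the 46 and 0 in both comparator classes, at least 129-fold and 104-fold higher. The 6 decreases that the naming rule took, from lists or not, among genes with a symbol and enough counts were of SMPDL3A, ACP5, CXCL14, ADGRG1, CALHM6 and PLVAP. PLVAP, an endothelial and macrophage membrane protein, had 3 UMIs in members, 64 in macrophages and 69 in DCs. It reached the filter's minimum in no member sum, so that the comparators alone brought it into the test. Of these 6, PLVAP alone passed under every alternative.

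**Figure D3:**
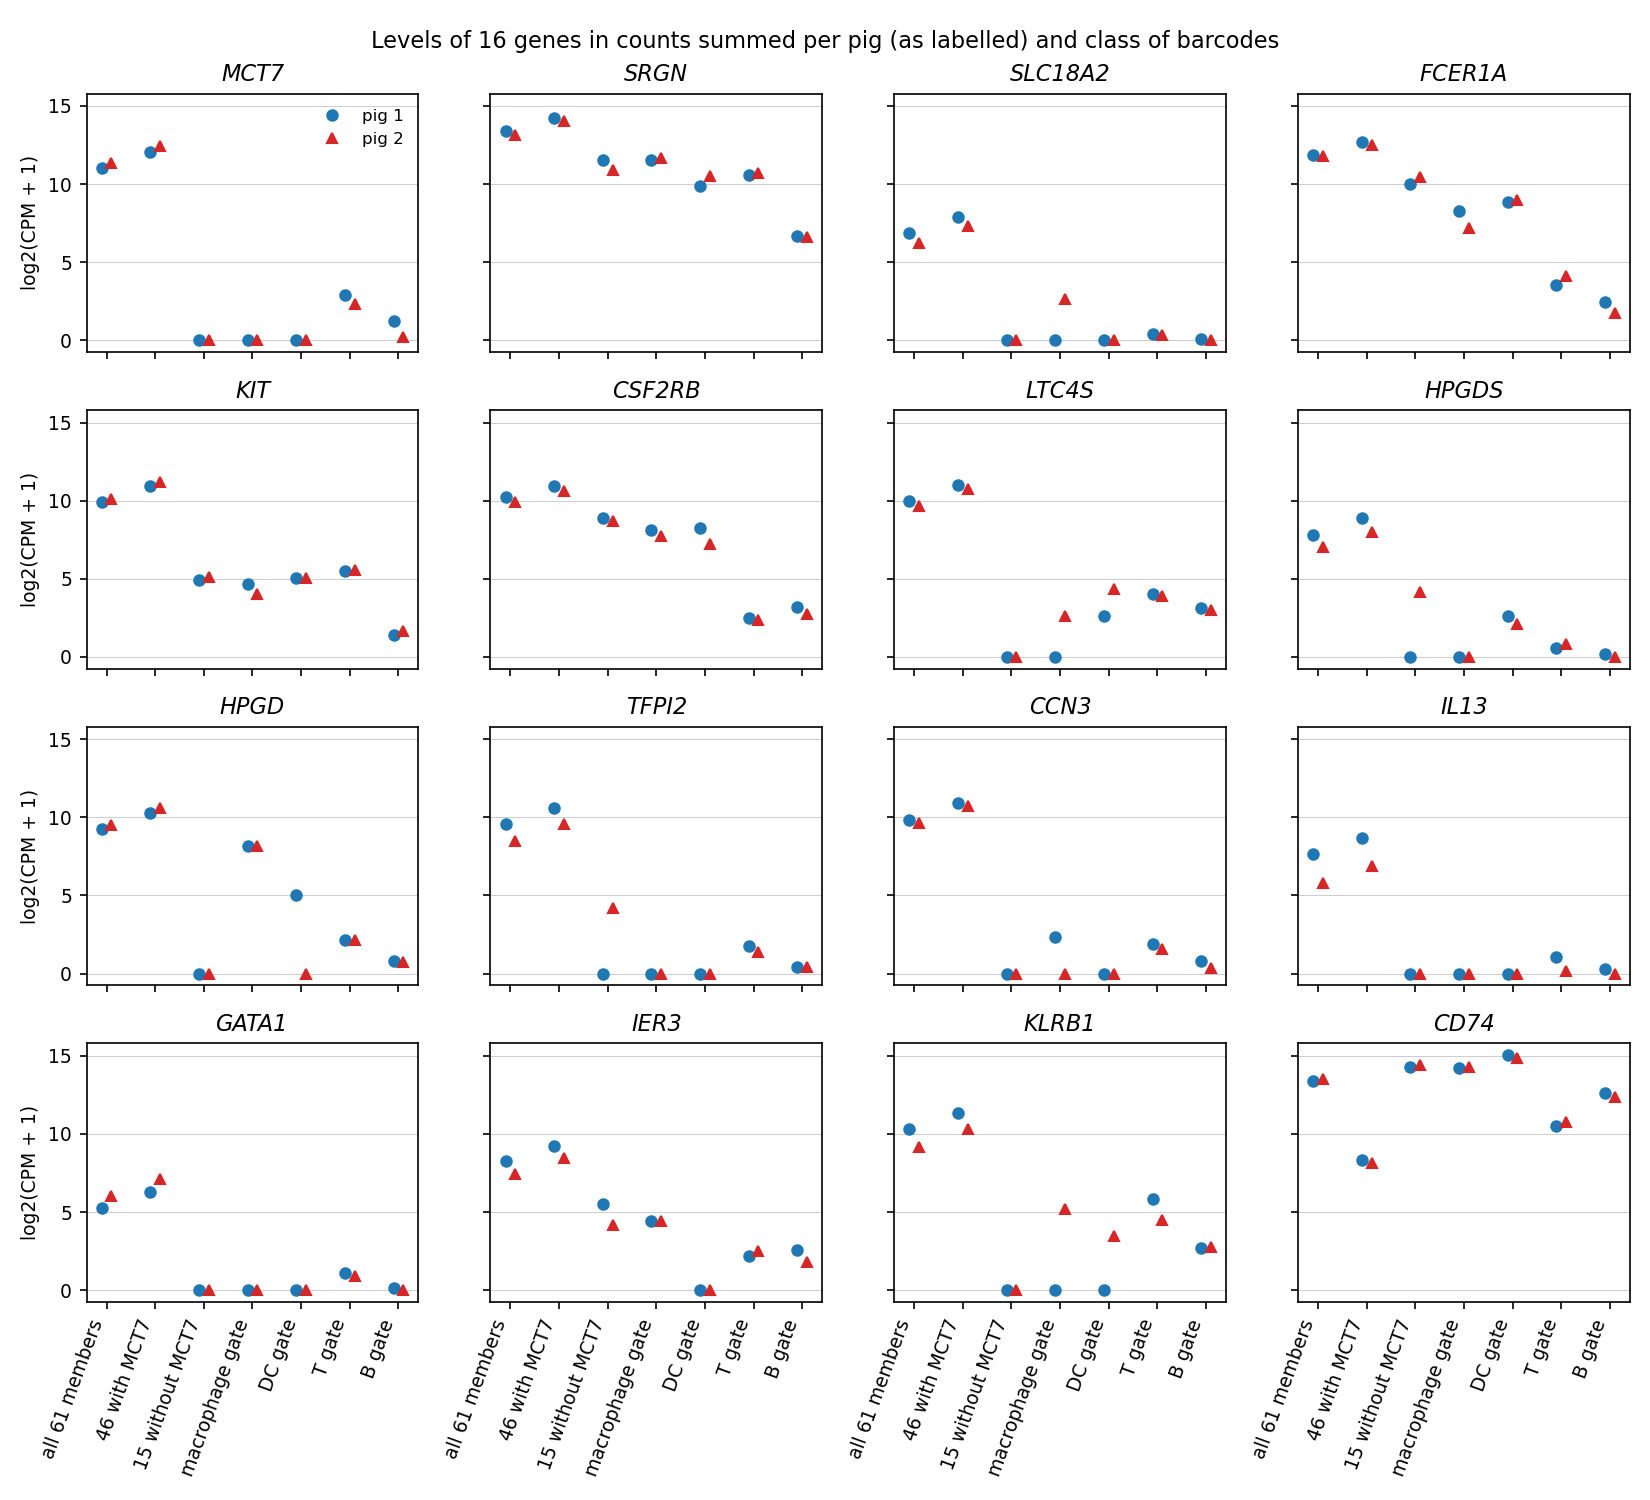
Levels of 16 genes as log2(CPM + 1) in counts summed per labelled pig (circles, pig 1; triangles, pig 2) for all 61 members, the 46 with MCT7, the 15 without, and the macrophage, DC, T and B gates. MCT7 is at 0 in the 15 members without it by construction and in macrophages and DCs, KIT and LTC4S are highest in the 46, and CD74 is at 328 and 276 CPM in the 46 against 10617 and 11850 CPM in all members.

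The same sums were set against T and B cells (12962 and 14363 barcodes of the T and B gates), the bulk of the ileal libraries. These gates also took in barcodes with 3 or more marker UMIs that the rule had removed for CD3E or CD79B alone. Their part in the T and B levels below was not tested. Of 4560 genes, 1424 (31.2%) passed, 797 (17.5%) of them higher and 627 (13.8%) lower in members than in the mean of T and B cells. Without the library labelled whole ileum 1, 1142 (27%) passed, of which 1080 were among the 1424. By the filter, 182 of the 797 were genes that entered the test only through the members, and 615 of the other 4124 (14.9%) were higher. Of the 627 lower genes, 215 reached the filter's minimum in no member sum. Eicosanoid enzymes were higher in 10 of 12 (median log2 fold change 6.41 against -0.09 for all genes), granule genes in 12 of 15 with 1 lower (2.21), mediator receptors in 8 of 13 with 1 lower (4.65), and IgE receptor genes in 12 of 22 with 2 lower (1.00). Of those higher, 3 of the 10 eicosanoid enzymes, 3 of the 12 granule genes, 5 of the 8 mediator receptors and 1 of the 12 IgE receptor genes entered the test only through the members.

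For most genes the comparators held enough UMIs here for fitted values. FCER1A was at 10.9 and 16.6 CPM in T cells and 4.56 and 2.32 CPM in B cells (log2 fold change 8.76 ± 0.34 SE, edgeR adjusted p = 4.99e-08). MCT7 was at 6.35 and 3.96 CPM in the T gate and 1.31 and 0.181 CPM in the B gate in the same sums. There, barcodes that the rule removed for CD3E or CD79B alone counted as T or B cells. KIT, which the T gate also held, was at 44.8 and 45.7 CPM there and 1.65 and 2.17 CPM in B cells (6.50 ± 0.15 SE, edgeR adjusted p = 3.04e-09). A KIT UMI was found in 8.9% of drawn T barcodes, an FCER1A UMI in 1.23% and an HDC UMI in 0.133%, against 95.7%, 100% and 80.4% of the 46 members. HPGD (8.42 ± 0.31 SE) and CSF2RB (7.31 ± 0.26 SE) were also higher, with edgeR adjusted p of 4.02e-08 and 4.02e-08, and CCN3, TFPI2 and NPR3, which entered the test only through the members, had fitted log2 fold changes of 9.35 ± 0.27, 9.08 ± 0.38 and 9.12 ± 0.35 SE.

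IL4 and IL13 were also far above the T gate. T cells are another known source of these cytokines, but the gate also held the barcodes that the rule removed for CD3E alone. IL4 had 16 UMIs in members and 17 in the whole T gate, at 0.582 and 0.24 CPM (353-fold (95% counting interval 168 to 732) by pooled CPM over T and B cells). IL13 was at 197 and 54.8 CPM in members and 1.07 and 0.12 CPM in T cells. Non-PP 1 held 18 of the 32 IL13 UMIs of members, and 22 in its T gate, where each other library held 0 or 1. In all, 10 of 18 secreted proteins were higher and 4 lower, the latter CCL3L1, CCL5, IL10 and XCL1, mostly chemokines of cytotoxic T cells. Of the 10, 7 entered the test only through the members, IL4 and IL13 among them, and of the 4, CCL3L1, IL10 and XCL1 reached the filter's minimum in no member sum. CCL3L1 had 0 UMIs in members and so was at least 3.92-fold lower, and its call was lost without non-PP 2, PP 1 or PP 2. AREG, counted here as higher, had its 19 UMIs in the set without MCT7 alone. CSF2, TNF and IL5 had none in any of the 61 members, which at these depths sets no limit on the share that express them.

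Other lists differed from T and B cells in ways that the split of members touches. Immediate early genes were higher in 14 of 24 (median 1.15), sterol genes in 7 of 15 (0.93), adhesion genes in 11 of 19 (1.58), vesicle genes in 7 of 15 with 1 lower (1.45), growth factor receptors in 4 of 12 (0.88) and transcription factors in 9 of 21 with 1 lower (0.71). Of those higher, 2 immediate early, 2 sterol, 2 adhesion and 2 vesicle genes and 1 transcription factor entered the test only through the members. ICAM1, an adhesion ligand, was at 779 and 411 CPM in members and 28.6 and 20.6 CPM in B cells (5.28 ± 0.27 SE, edgeR adjusted p = 3.97e-07). MHC class II genes were higher in 9 of 12 (1.44), and HLA-DRA, for instance, was 4.62-fold higher by pooled CPM over all members while the 46 stood at 0.0657 times the lymphocyte level. Macrophage markers were higher in 6 of 13 with 1 lower (ACP5), and DC markers were higher in 7 of 12. Among those higher, CD1E, PAK1 and CSF1R had 0 UMIs in the 46. CD9, a tetraspanin on the platelet list and the adhesion list, had 21 UMIs in the 15 and 0 in the 46, and its fold change turned from 3.59 to -0.39 with a rule of 5 marker UMIs.

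Cell cycle genes were lower than in T and B cells in 9 of 16 and higher in none, with a median of -1.54. TYMS, the thymidylate synthase of S phase, had 7 UMIs in members, or 15.1 and 45.6 CPM, against 126 and 100.2 CPM in T cells and 284 and 287 CPM in B cells (log2 fold change -2.90 ± 0.41 SE, edgeR adjusted p = 0.000361), and 1 of the 7 UMIs lay in the 46. PCNA was also lower (-2.16 ± 0.35 SE, edgeR adjusted p = 0.000947). Markers of B lineage cells were lower in 10 of 13 and those of T cells in 8 of 12, the cell types that the rule removed through CD79B and CD3E, and 7 of the 10 and 6 of the 8 reached the filter's minimum in no member sum. Of 14 lymphocyte-type genes, KLRB1 and CD244 were higher and TNFRSF18, which reached the filter's minimum in no member sum, lower (median -2.29). KLRB1, which entered the test only through the members, was at 1248 and 584 CPM in members, 56.3 and 21.7 CPM in T cells and 5.4 and 5.85 CPM in B cells. NKG7, a cytotoxic granule protein, had a UMI in 43 of the 46 members and in 66.4% of drawn T barcodes, and did not pass. PECAM1 and the epithelial gene CDH17 were higher on 22 of 24 and 14 of 14 UMIs from the set without MCT7, and both calls were lost without non-PP 2.

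Without the library labelled whole ileum 1, 56 of 64 genes named by the rule in the comparison with macrophages and DCs, and 74 of 79 in that with T and B cells, still passed in the same direction. The 8 that did not were ADGRG1, APOE, CD86, CXCL14, IL13, SLA-DMB, STXBP2 and VCAM1, and the 5 were CCNB1, ENSSSCG00000040379, PECAM1, TRAT1 and VCAM1. Of 4222 genes tested without this library, 198 (4.69%) were higher and 112 (2.65%) lower against macrophages and DCs, and 653 (15.5%) higher and 489 (11.6%) lower against T and B cells. By list, against macrophages and DCs, mediator receptors were higher in 4 of 12, secreted proteins in 4 of 16 with none lower, vesicle genes in 6 of 15, eicosanoid enzymes in 6 of 12 with 1 lower and IgE receptor genes in 6 of 21 with 2 lower. MHC class II genes were lower in 6 of 12, macrophage markers in 2 of 13 and DC markers in 3 of 12. Granule genes were higher in 3 of 14 with 3 lower. Immediate early genes (11 of 24) and sterol genes (5 of 15) gave the counts they gave with it. Of list genes outside the naming rule's picks, CCR9, CXCL8, IFI30, JUN, LGMN, PTGS1 and RGS2 lost their call there. HRH4 and IL4 were too low to be tested. The fitted median of the secreted proteins was then -0.11. By list against T and B cells, granule genes were higher in 9 of 14 and mediator receptors in 6 of 12, each with 1 lower. Adhesion genes were higher in 7 of 18 with 1 lower, sterol genes in 5 of 15 and eicosanoid enzymes in 10 of 12. IgE receptor genes were higher in 10 of 21 with 2 lower, and secreted proteins in 9 of 16 with 3 lower. Immediate early genes were higher in 13 of 24 and MHC class II genes in 8 of 12, while cell cycle genes were lower in 6 of 16.

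Members were then compared across dissections. With counts summed per library, 0 of 751 genes (0%) passed between non-PP and PP members by edgeR, with 58 at an unadjusted p below 0.05, a lowest adjusted p of 0.205, and 0 by DESeq2. Each sum rested on 6 to 14 members, and leaving out non-PP 1 gave 4 genes higher, and leaving out non-PP 2 gave 1 higher and 6 lower. Each of the latter fits had 1 non-PP library, assumed to vary like the other groups. The sums also differed in their mix, with members that carried MCT7 holding 81.1% and 36.1% of member UMIs in non-PP 1 and 2 but 28.1% and 20.2% in PP 1 and 2.

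Some transcripts of the 46 members with MCT7 nevertheless differed between libraries, given here as values without a test. Neuropeptide Y (NPY), a peptide of sympathetic and enteric nerves, had a UMI in 11 of 13 members of non-PP 1 and 3 of 4 of PP 1, the libraries labelled pig 1 in which Y-linked UMIs were near 0, and in none of the 29 members of the other 4 libraries. Its level was 1231, 0, 966, 0, 0 and 0 CPM. The 7 members of the library labelled whole ileum 1 were among those without NPY. NPY was at 0 in macrophages and DCs of all 6 libraries, at 0.383 to 4.53 CPM in T cells and at 0 to 10.3 CPM in B cells, highest in B cells of PP 2. The part of free RNA in these values was not tested.

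KLRB1 was also uneven, with 3062, 1546, 2900, 371, 1420 and 1275 CPM, and present in 12 of 13 members of non-PP 1 but 1 of 3 of PP 2. T cells of non-PP 1 held the highest KLRB1 level among T gates too, 85.0 CPM against 16.7 to 51.1 CPM in the other 5. TFPI2 stood at 1288, 644, 4218, 1113, 341 and 772 CPM, highest in PP 1, where 1 of the 4 members held 27 of the 48 UMIs. IL13 was found in 13 of the 46 members, 6 of them in non-PP 1, and IL4 in 12, at 515, 64.4, 352, 186, 227 and 134 CPM and 200.3, 129, 352, 0, 56.8 and 67.1 CPM. In PP 2, with 3 members and 5389 UMIs, a level of 186 CPM was 1 UMI.

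**Figure D4:**
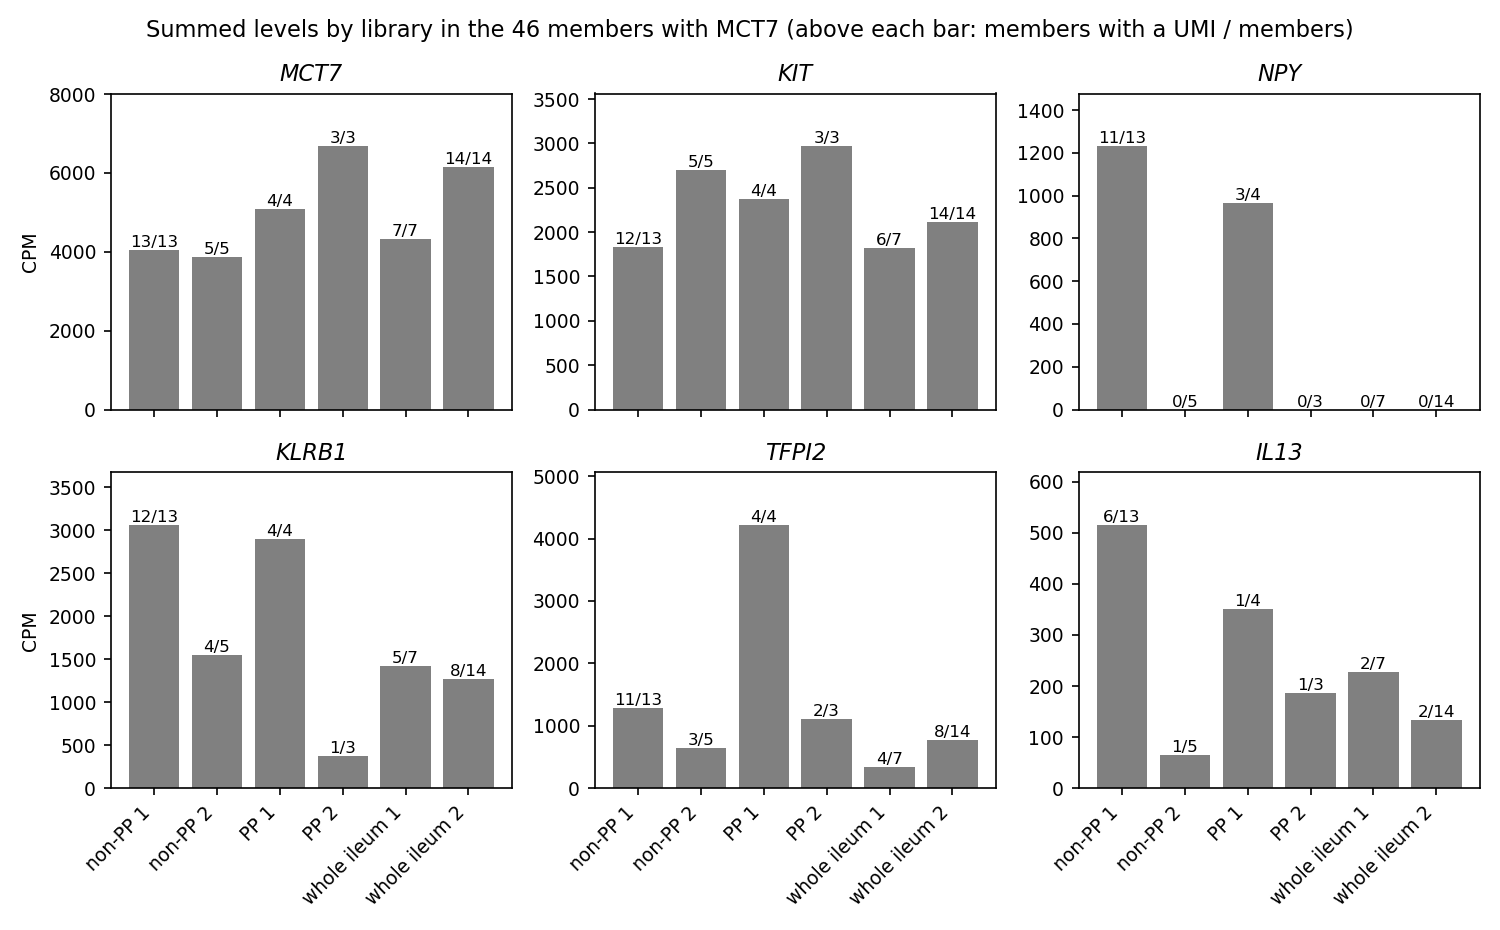
CPM of 6 genes summed over the 46 members with MCT7 in each ileal library (bars), with the number of members that had a UMI over the number of members printed above each bar; each panel has its own axis from 0. MCT7 and KIT are present in all 6 libraries, while NPY is present in non-PP 1 (11 of 13) and PP 1 (3 of 4) only.

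In blood, the rule found barcodes without tryptase. In the PBMC libraries, 86 and 190 passing barcodes met it, 1.33% and 2.79% of those that passed. Of these 276, 272 (98.6%) carried MS4A2 alone, the same 272 held AIF1, and 267 of the 276 held HLA-DRA. MCT7 was at 0 in all 276 (exact Clopper-Pearson interval 0 to 1.328%), which limits the share of such barcodes with an MCT7 UMI. Over all barcodes, the blood library of pig 1 held 1 MCT7 UMI and that of pig 2 held 0. Expression too low to give a UMI was not tested. Against 46, 44 and 44 of the 46 ileal members with MCT7, FCER1A had a UMI in 31 of the 276 blood barcodes, KIT in 18 and LTC4S in 9. The blood barcodes were deep, with library medians of 7869 and 9505 UMIs against 3205 and 3583.5 UMIs for all passing PBMC barcodes. Among the 15 ileal members without MCT7, 14 held AIF1, all 15 HLA-DRA and 11 FCER1A.

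**Figure D5:**
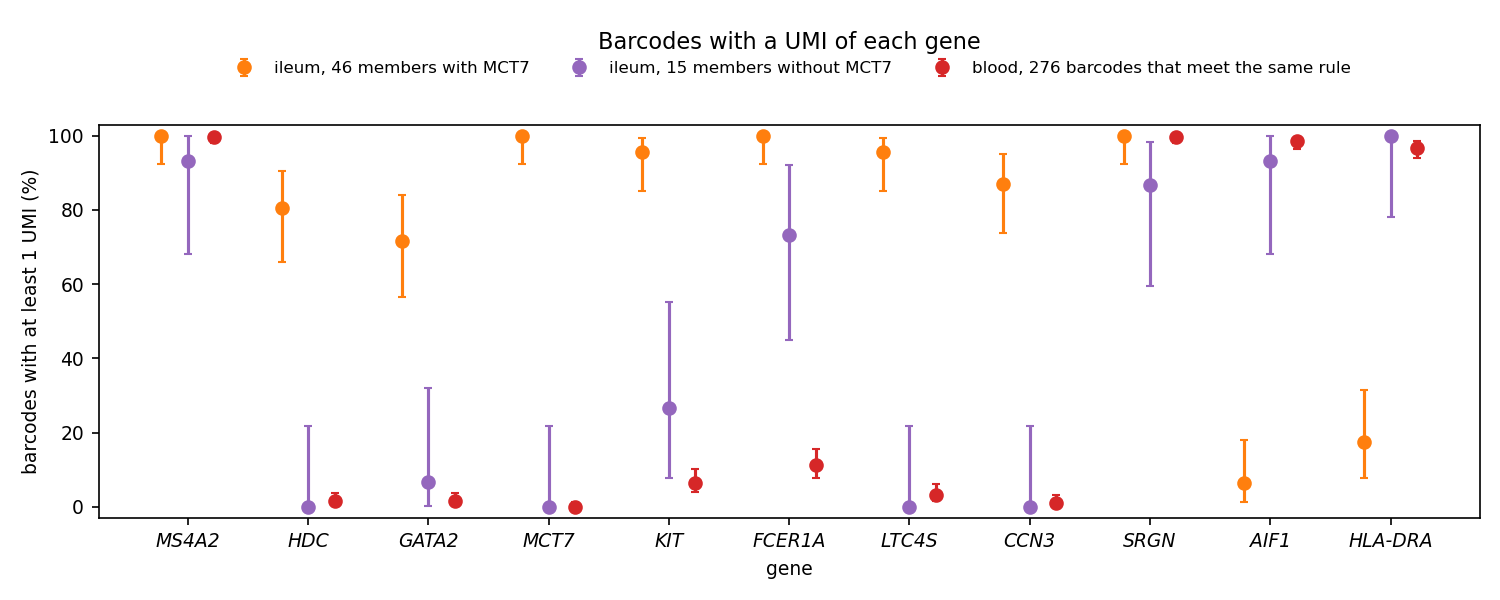
Percentage of barcodes with at least 1 UMI of 11 genes in the 46 ileal members with MCT7 (orange), the 15 without (purple) and the 276 blood barcodes that met the same rule (red), with exact Clopper-Pearson 95% intervals. MS4A2 is above 93% in all 3 sets. MCT7 is at 100% and 0% in the ileal sets by construction and at 0% in blood. AIF1 is at 6.52% in the 46 and above 93% in the 15 and in blood.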

How the data were processed

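Single cells of 6 ileal and 2 PBMC libraries were captured on a 10X Chromium 3′ platform, and the 32 sequencing runs listed for them had been joined into 8 libraries. The authors deposited raw UMI counts for 25880 genes and 737280 barcodes per library, made with Cell Ranger against the Sus scrofa 11.1 genome and a modified Ensembl 97 annotation, before any removal of ambient RNA, doublets or poor cells. Symbols came from the matrices (17733 genes), a RefSeq and Ensembl name table (970) or the study's gene table (17), and 7160 genes had none.

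Barcodes were filtered as stated at the opening of the results. The marker rule, comparator gates and 22 gene lists were chosen with earlier results of these data known. Counts were summed per pig and class and tested with edgeR 4.0.16 (R 4.3.3; TMM, filterByExpr, quasi-likelihood test) in 1 fit of 5 classes, with Benjamini-Hochberg adjustment over all genes tested and a threshold of 0.05. The genes of the gates were left out. The model was tested on simulated data, where raised genes were recovered more often than lowered ones. Against macrophages and DCs it recovered 75% of genes raised 4-fold and 37.1% of those lowered 4-fold, and 94.7% and 64.3% at 8-fold. Against T and B cells these were 88.2% and 55.2% at 4-fold. DESeq2 1.42.0, RLE factors, no filter, a pig block, library sums, other gates and depths, Scrublet in scanpy 1.11.5 and leaving out each library were alternatives. Named were up to 4 called genes per list with the same sign in both pigs, the 10 called genes furthest up and 6 furthest down, and up to 2 without symbol in each direction; other genes, such as SRGN, FCER1G, ALOX5, FOS and NPY, were named after their values were seen. A gene that this rule named is not reported here. Medians over a list set genes at 0 in a class to their pooled ratio or to the floor of 3 UMIs over the group. Replicate numbers name the pig by the labels. Deviations of member sums from the class mean correlated across 4571 genes with those of the same pig's macrophages at -0.0038, DCs at 0.07, T cells at 0.17 and B cells at 0.08. Over 755 genes, deviations of members in libraries of the same labelled pig correlated at 0.37 between non-PP and PP, -0.30 between non-PP and whole ileum and -0.16 between PP and whole ileum. No protein or promoter sequence was used here.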

Additional observations from a re-analysis of the deposited data

Results flagged for a closer look

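The library labelled whole ileum of pig 1 held 193 CPM of Y-linked UMIs although its pig is labelled female, against at most 2.49 CPM in the other libraries labelled pig 1. Its 11 members held 9 Y-linked UMIs of 48682 (185 CPM), while the members of non-PP 1 and PP 1 held 0 of 43094 and 0 of 40463. The 7 members with MCT7 of this library held no NPY UMI, unlike those of non-PP 1 and PP 1. Which animal this library came from was not tested further.

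In blood, 4 barcodes of the pig 2 library met the rule with HDC or GATA2 and without AIF1, apart from the 272 that carried MS4A2 alone. They held 4394, 3299, 3148 and 3609 UMIs. KIT stood at 0, 7, 3 and 6 UMIs, CCN3 at 0, 2, 3 and 3, and MCT7 at 0 in each. HDC was present in all 4 and GATA2 at 4 to 7 UMIs. NPY had 1 and 3 UMIs in the last 2 of them. No such barcode was found in the blood library of pig 1.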

How the results depend on the processing

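Counts were low: 61 members in 2 pigs, of which 15 without MCT7 held 52.6% of the summed UMIs, so that fold changes over all members mix both sets. Against macrophages and DCs, 261 genes were higher and 166 lower, and leaving out 1 library gave 163 to 258 higher and 90 to 171 lower, with the fewest without non-PP 1 (168 and 106) and without whole ileum 2 (163 and 90). Sums per library with a library term gave 201 higher and 168 lower, with 243 of the 427 calls shared. Within the libraries of pig 1 only, 97 were higher and 40 lower, and within those of pig 2 only, 81 and 61. Without a filter on low counts, 288 were lower. Against T and B cells, where 797 were higher and 627 lower, sums per library with a library term gave 461 higher and 448 lower, with 789 of the 1424 calls shared, pig 1 only 410 and 257, pig 2 only 302 and 292, and no filter 1150 lower, a fit that moved the median of all genes to -0.94. Leaving out 1 library gave 653 to 690 higher and 489 to 603 lower. Between non-PP and PP members, no filter gave 17 higher and 10 lower, and leaving out 1 library 0 to 4 higher and 0 to 6 lower, in fits that could leave 1 library in a group, assumed to vary like the others. The pig as a replicate block gave 464 calls (271 higher) against macrophages and DCs and 1459 (804 higher) against T and B cells, none between non-PP and PP members, and ended no call of a named gene. The share of members was 0.201 points higher in non-PP than in PP also within pigs as a replicate block, and the difference of the group means was above 0 under every alternative run, at 0.0488 points over barcodes with no CD79B UMI. Within pig 2 alone non-PP was below PP over barcodes with no CD79B UMI (0.217% and 0.244%) and over those with no CD3E, CD79B or EPCAM UMI (0.763% and 0.946%).

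For the 147 genes that the naming rule picked (66 and 81 by comparison), not all of which appear in the text, 2305 values under alternatives kept direction and call in 2157, lost the call in 147 and reversed in 1, CD9 against T and B cells, at -0.39 with a rule of 5 marker UMIs. In all, 40 of the 66 and 58 of the 81 passed under every alternative that gave a value. An alternative with CPA3 was not run, because no name table tied it to a row. Shares of members with MCT7 were added after seeing the data.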

Other observations

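Beyond mast cell genes, the 46 members with MCT7 carried transcripts of LMNA, the nuclear lamin A, in 45 and of ALOX5AP, which presents arachidonic acid to 5-lipoxygenase, in 43. JCHAIN, the joining chain of plasma cells, had a UMI in 15 of the 46 at no more than 2 UMIs. FABP6-led epithelial UMIs of the 46 were highest in non-PP 1, at 1918 CPM, where the T gate held 2563 CPM and the macrophage gate 1894 CPM, and lowest in PP 2, at 0, where the T gate held 164 CPM.

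TOP2A, a gene of dividing cells, had a UMI in 1 of the 46, and ITGAE, the integrin of intraepithelial lymphocytes, in none. ITGA2B, listed among platelet and granulocyte markers, gave 6 of that list's 7 UMIs in the 46.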
